A study of Homo sapiens with 3 samples.

Results

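The interferon response genes were compared between SupB15-MR and SupB15 cells on Affymetrix arrays. The members are 55 genes that act in, or are induced by, interferon signaling, taken with every probe set that the platform's gene table assigns to one of them alone. They held 107 of the 54675 probe sets on the array, and 53 of the 55 had a probe set of their own, out of 19775 such genes. STAT2 and IFI30 had none under this rule and were not analysed here. SupB15 is a BCR-ABL positive B-cell precursor acute lymphoblastic leukemia line. SupB15-MR cells (2 arrays, labelled multiple drug resistant) descend from SupB15 cells that survived mitoxantrone in medium conditioned by HS-5 bone marrow stromal cells, and SupB15 cells (1 array, labelled drug sensitive) are their parent line. All 3 arrays were made from cells in RPMI1640 with fetal bovine serum, and no interferon treatment is named in the labels. The second SupB15-MR array is described as the subclone SupB15-MR5, and the study speaks of different subclones. The paper describes its SupB15-MR profiles as those of 2 clones, named MR1 and MR2 in a main figure and MR1 and MR5 in its supplement. The spread between these arrays is then one between clones, and not between repeats of a single culture.

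Interferons are secreted proteins that warn cells of infection. Type I interferons bind IFNAR1 and IFNAR2, and interferon gamma binds IFNGR1 and IFNGR2. JAK family kinases at these receptors phosphorylate STAT proteins, which enter the nucleus and bind the promoters of target genes, with IRF9 in the case of type I interferon. The targets encode sensors of viral RNA, enzymes that degrade or edit RNA, proteins that block virus entry, and brakes on the pathway itself. In hematopoietic cells the pathway also restrains growth, and interferon alpha has been used as a treatment for BCR-ABL positive leukemia.

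The values are log2 expression values from RMA, a method that corrects, quantile-normalises and summarises the probes of an array. A difference of 1 is 2-fold. Each probe set binds its own RNA with its own strength, so that values are compared between arrays and never between probe sets. A probe set was called when it differed at least 2-fold at an adjusted p of at most 0.05 in limma (Benjamini-Hochberg over 46034 probe sets). The spread in this test comes from the SupB15-MR arrays alone, since SupB15 had 1 array, and the labels call the SupB15-MR arrays biological replicates without saying how the cultures were separated. An exact permutation test of 2 arrays against 1 cannot go below p = 0.333. In practice each tested probe set that was at least 2-fold apart was called. A call thus says no more than that the SupB15-MR mean was at least 2-fold from the single SupB15 array. The standard errors came mostly from a spread shared by all probe sets (SD 0.169 on 17.1 degrees of freedom, against 1 for a probe set itself). They were 0.201 even where both SupB15-MR values were identical.

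Interferon genes went both ways in SupB15-MR. Of 52 genes tested, 16 (30.8%) were called higher, 16 (30.8%) lower and 2 (3.85%) in both directions on different probe sets, and 18 were not called. Over all 17544 genes tested by the same rule, 22.6% were called higher, 19.1% lower and 5.57% both ways. By probe set, 22 of the 103 tested interferon probe sets (21.4%) were higher and 21 (20.4%) lower, beside 19.6% higher and 16.2% lower of all probe sets tested. The shares of probe sets lie near those of the whole array, while the shares of genes called higher and lower lie above them. The median difference over the 107 interferon probe sets was 0.13, against 0 over all probe sets. The SupB15-MR arrays had medians 0.19 above that of the SupB15 array. When each array was centred on its median, 11 interferon genes were higher and 19 lower, and the median difference over the interferon probe sets turned to -0.06. In RNA from whole cultures, fewer cells that express a gene and less of its RNA in each cell cannot be told apart.

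Most called differences were moderate, and the largest lay in both directions. Of the 43 called probe sets, 16 differed more than 4-fold, of which 5 were higher and 11 lower. These falls include both probe sets of GBP2, several of XAF1 and those of the closely related IFITM genes. The share of all probe sets that differed more than 4-fold was not counted. The excess of large falls is thus not read as a trait of interferon genes. In 39 of the 43, both SupB15-MR arrays were at least 2-fold from SupB15 on the same side. The median distance between the SupB15-MR arrays was 0.075 over the interferon probe sets, and 2 of the 107 differed at least 2-fold between them. Their values were identical to the last digit in 31 probe sets, as they were in 42.7% of the whole array, and 6 interferon probe sets had 1 value in all 3 arrays. When the variance prior was estimated with such identical probe sets included, 14 interferon probe sets were higher and 9 lower. Without a call were then IFNGR2, IRF7, IFIH1, MAVS, USP18, HERC6, MX1, GBP1, GBP2, GBP3, GBP4, SP110, ISG20 and IFI35.

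**Figure D1:**
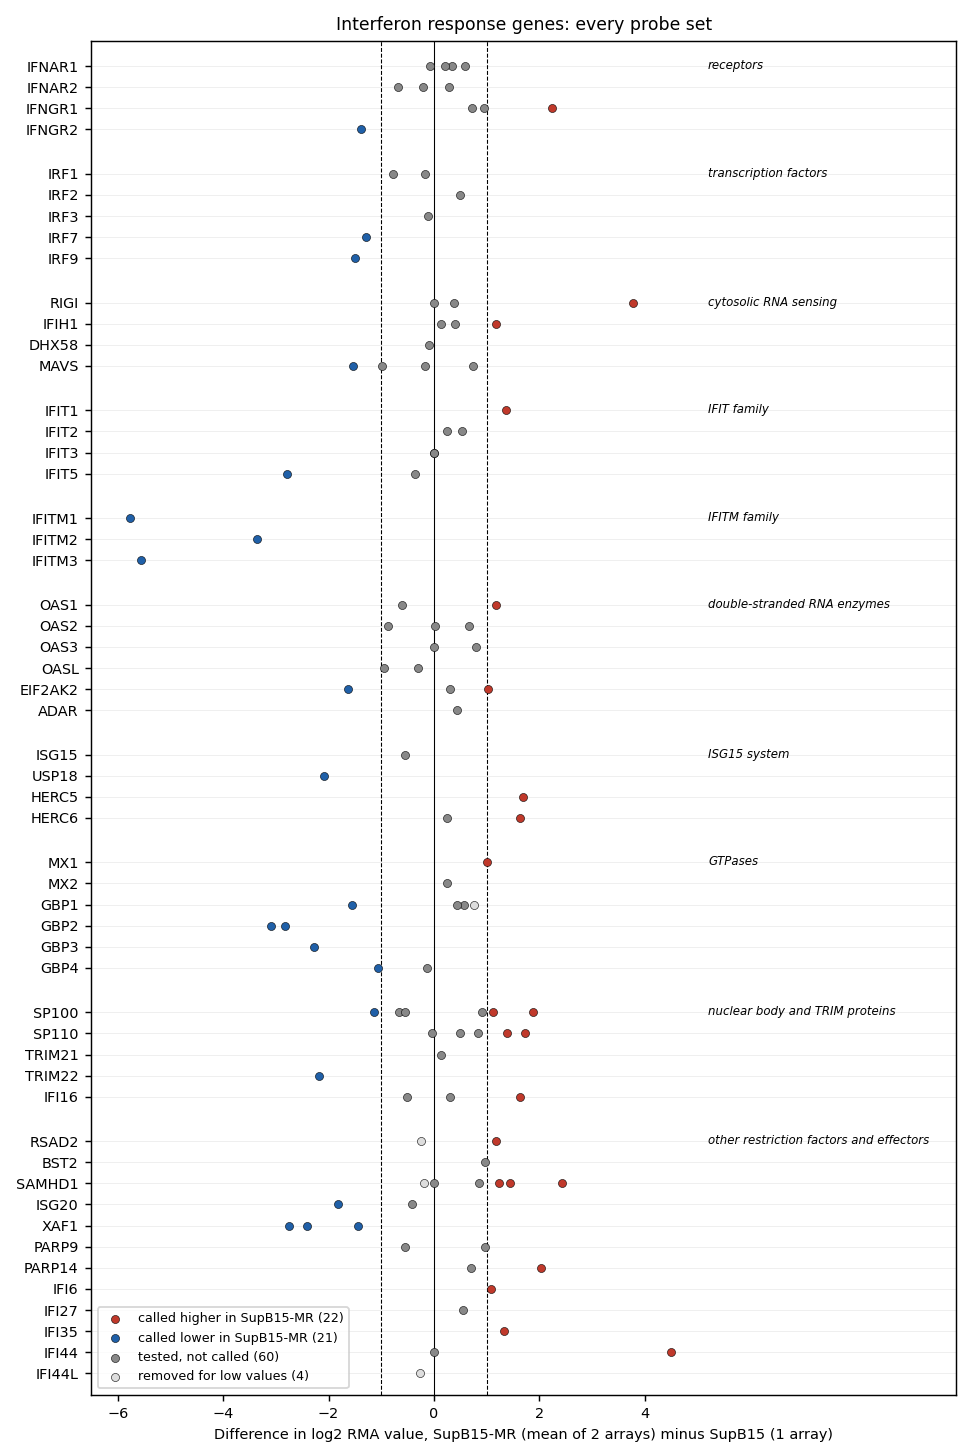
Difference in log2 RMA value between SupB15-MR (mean of 2 arrays) and SupB15 (1 array) for each of the 107 interferon probe sets, with 1 row for each of the 53 genes, grouped by role. Dashed lines mark 2-fold. The 22 probe sets called higher reach 4.50 (IFI44) and the 21 called lower reach -5.77 (IFITM1), and several genes have points on both sides of 0.

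Among the falls, the IFITM family stood first. IFITM1, IFITM2 and IFITM3 encode small membrane proteins that stop enveloped viruses from fusing with the cell. IFITM1 had values of 4.69 and 4.31 in SupB15-MR, against 10.27 in SupB15. IFITM3 had 6.09 and 6.19 in SupB15-MR, against 11.70 in SupB15. IFITM2 had 7.88 and 8.07 in SupB15-MR, against 11.34 in SupB15. In all 3 genes both SupB15-MR arrays lay far below SupB15 and close to each other. The falls were 54.4-fold for IFITM1 (log2 difference -5.77, standard error 0.216, adjusted p = 1.53e-13 in limma), 47.3-fold for IFITM3 (-5.56, standard error 0.202) and 10.3-fold for IFITM2 (-3.36, standard error 0.205). IFITM1 and IFITM3 were the largest differences in either direction among the members. Each of these genes had 1 probe set, and the names of all 3 mark them as able to bind more than one transcript of this closely related family. A further probe set, which the table shares between IFITM1 and IFITM2 and which is no member, had 5.80 and 5.54 in SupB15-MR, against 10.24 in SupB15. The 3 genes lie within 100 kb of their nearest family member on chromosome 11.

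The promoters of 42 of the 55 members are in the RefSeq promoter table (GRCh38.p14). The 150 bases before the start are shown for IFITM1 and IFITM3, the members that fell most, for IFIT5, which fell beside a gene that rose, for HERC5, IFIT1 and IFI6, which rose, and for ISG15, which was not called. Capitals mark complete copies of the letters GAAANNGAA, the core of the interferon-stimulated response element, or their reverse complement TTCNNTTTC.
IFITM1 (chr11:313890-314039, plus strand; lower): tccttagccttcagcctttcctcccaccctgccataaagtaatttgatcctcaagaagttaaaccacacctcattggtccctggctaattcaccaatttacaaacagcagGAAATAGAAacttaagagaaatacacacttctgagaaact
IFITM3 (chr11:320861-321010, minus strand; lower): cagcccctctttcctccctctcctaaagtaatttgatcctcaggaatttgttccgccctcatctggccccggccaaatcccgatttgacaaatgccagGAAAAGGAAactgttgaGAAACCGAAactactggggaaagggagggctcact
IFIT5 (chr10:89414418-89414567, plus strand; lower): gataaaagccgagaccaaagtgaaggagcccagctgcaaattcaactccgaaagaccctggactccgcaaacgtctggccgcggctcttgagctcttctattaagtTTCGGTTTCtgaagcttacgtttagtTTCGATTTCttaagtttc
HERC5 (chr4:88456969-88457118, plus strand; higher): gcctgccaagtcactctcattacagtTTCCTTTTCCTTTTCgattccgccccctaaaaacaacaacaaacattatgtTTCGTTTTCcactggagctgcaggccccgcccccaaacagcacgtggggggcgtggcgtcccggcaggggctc
IFIT1 (chr10:89392473-89392622, plus strand; higher): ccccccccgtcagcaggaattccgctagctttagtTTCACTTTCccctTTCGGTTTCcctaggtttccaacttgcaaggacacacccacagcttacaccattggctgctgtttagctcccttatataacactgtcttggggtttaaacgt
IFI6 (chr1:27672193-27672342, minus strand; higher): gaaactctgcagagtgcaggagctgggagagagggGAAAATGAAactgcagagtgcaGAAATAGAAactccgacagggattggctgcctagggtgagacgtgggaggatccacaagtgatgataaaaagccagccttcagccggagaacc
ISG15 (chr1:1013347-1013496, plus strand; not called): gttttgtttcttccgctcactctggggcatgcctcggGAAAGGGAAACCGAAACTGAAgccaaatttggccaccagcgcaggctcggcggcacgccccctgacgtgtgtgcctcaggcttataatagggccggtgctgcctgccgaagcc

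Members called higher and members called lower both held these letters. GAAANNGAA was found on either strand, in the window from 250 bases before to 50 bases after the start, in 25 of the 42 members (59.5%), against 8.11% of all 35116 windows and 9.86% of 27305 genes. It was found in 9 of 16 members called higher, 7 of 11 called lower and 7 of 10 not called. Some copies overlap, as in ISG15, where copies start 113, 107 and 101 bases before the start. TTCNNNGAA, the core of the gamma-activated site, was found in 11 of 42 members (26.2%), against 7.66% of all windows and 9.38% of all genes. Among members called higher 5 of 16 held it, and among those called lower 3 of 11. IFITM1 and IFITM3 also shared the 19 bases taaagtaatttgatcctca, which begin 116 and 127 bases before their starts. A match to these letters is a description of the window and not a binding site.

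The receptors for type I interferon kept their levels within 2-fold, whereas the chains of the interferon gamma receptor went opposite ways. IFNGR1, the chain that binds interferon gamma, had 10.39 and 10.28 in SupB15-MR, against 8.11 in SupB15, on its called probe set, which is 4.69-fold higher (log2 difference 2.23, standard error 0.202, adjusted p = 1.96e-08 in limma). Its other probe sets had 8.61 and 8.61 in SupB15-MR against 7.88 in SupB15, and 5.85 and 5.83 in SupB15-MR against 4.89 in SupB15. All 3 probe sets were thus higher in both SupB15-MR arrays, while 1 passed the 2-fold threshold, and that call rests on a probe set whose name marks it as shared among transcripts. IFNGR2, the signaling chain, had 7.22 and 6.99 in SupB15-MR, against 8.48 in SupB15, a 2.59-fold fall (-1.38, standard error 0.207). IFNAR1 had differences between -0.07 and 0.58 over its 4 probe sets, with values of 5.75 to 7.31 in SupB15-MR and 5.59 to 7.25 in SupB15. IFNAR2 had differences of -0.68, 0.29 and -0.21 over its 3 probe sets, with values of 6.48 to 7.64 in SupB15-MR and 6.84 to 8.10 in SupB15. None of these 7 probe sets was called.

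Of the 5 transcription factors with a probe set, 2 were called and both were lower. Over all genes tested, 22.6% were called higher and 19.1% lower, and 5 genes are too few to set apart from these shares. IRF9, which gives the STAT complex of type I interferon its DNA binding, had 5.97 and 5.96 in SupB15-MR, against 7.47 in SupB15, a 2.83-fold fall (-1.50, standard error 0.201). A probe set that the table shares between IRF9 and its neighbor RNF31, and which is no member, had a difference of -0.19. IRF7, the main activator of the interferon alpha genes, had 5.18 and 5.37 in SupB15-MR, against 6.57 in SupB15, a 2.45-fold fall (-1.29, standard error 0.205). The call of IRF7 was lost when the variance prior included probe sets with identical values. It rests on a probe set whose name marks it as shared among transcripts. The other factors stayed within 2-fold. IRF1, an activator induced by interferon gamma, had 8.11 and 8.19 in SupB15-MR against 8.92 in SupB15, and 7.52 and 7.52 against 7.70 on its second probe set. IRF2, which competes with IRF1 for its sites, had 7.62 and 7.63 in SupB15-MR, against 7.13 in SupB15. IRF3, the latent factor that RNA sensing switches on, had 7.72 and 7.81 in SupB15-MR, against 7.87 in SupB15.

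In the sensing of cytosolic RNA, 1 probe set of RIGI had the second-largest rise among the members, and its others stayed within 2-fold. RIGI binds short double-stranded RNA with a triphosphate end. It had 8.27 and 8.49 in SupB15-MR, against 4.61 in SupB15, on 1 probe set, which is 13.6-fold higher (3.77, standard error 0.206, adjusted p = 1.91e-11 in limma). The second had 5.92 in all 3 arrays, and the last 8.01 and 8.01 in SupB15-MR against 7.64 in SupB15. IFIH1, the sensor of long double-stranded RNA also known as MDA5, was higher on 1 of 3 probe sets, with 3.95 and 4.08 in SupB15-MR, against 2.85 in SupB15. That SupB15 value lies at the low end of the array, under the filter value of 3.47, and the call was lost when arrays were centred on their medians. MAVS, the mitochondrial adaptor of both sensors, had 1 probe set lower (7.39 and 7.61 in SupB15-MR, against 9.03 in SupB15) and 3 not called, with differences of 0.74, -0.98 and -0.18. DHX58, which tunes these sensors, had a difference of -0.10.

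The IFIT genes, which encode proteins that bind viral RNA and lie side by side on chromosome 10, also split. IFIT1 had 6.70 and 6.73 in SupB15-MR, against 5.35 in SupB15, a 2.58-fold rise (1.37, standard error 0.201, adjusted p = 9.46e-06 in limma). IFIT5 had 4.60 and 4.64 in SupB15-MR, against 7.42 in SupB15, on its called probe set, a 6.94-fold fall (-2.79, standard error 0.201), while its second probe set had a difference of -0.37. IFIT2 had differences of 0.54 and 0.25. Both probe sets of IFIT3 had the same value in all 3 arrays. The reason for such identical values is not stated, so they are not read as a measured lack of change.

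**Figure D2:**
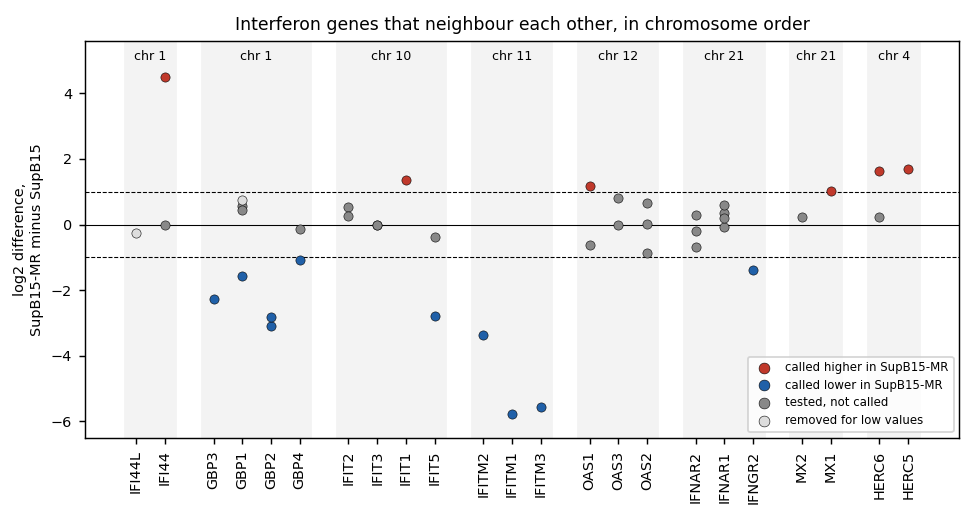
Difference in log2 RMA value, SupB15-MR minus SupB15, for each probe set of the 23 members that lie within 100 kb of another member, ordered along the chromosome, with 1 shaded band for each of the 8 groups. All members of the IFITM and GBP groups have a probe set called lower, HERC6 and HERC5 each have one called higher, and the IFIT group has 1 of each kind.

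Genes that neighbor each other were called alike in some places and not in others. There were 8 groups of members within 100 kb, holding 23 genes. The IFITM group on chromosome 11 and the GBP group on chromosome 1 held only genes called lower, and HERC6 and HERC5 on chromosome 4 were both higher. GBP1, however, had differences of 0.57 and 0.43 on its other tested probe sets, and HERC6 had 0.24 on its second. The IFITM probe sets may bind more than one transcript of the family, so their falls may not be independent. How often neighbors on the whole array are called alike was not counted. In the OAS group on chromosome 12, the MX pair on chromosome 21 and the group of IFNAR2, IFNAR1 and IFNGR2 on the same chromosome, 1 gene each was called. IFI44 rose beside IFI44L, whose single probe set was too low to be tested, with 2.52 and 2.35 in SupB15-MR and 2.70 in SupB15.

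The guanylate-binding proteins, GTPases that are induced above all by interferon gamma and attack the compartments of intracellular microbes, were lower on at least 1 probe set each. GBP2 had 4.18 and 2.85 in SupB15-MR, against 6.61 in SupB15, and 2.04 and 2.74 in SupB15-MR against 5.21 in SupB15 on its second probe set. Both SupB15-MR arrays lay below SupB15, but they were more than 2-fold apart from each other on the first probe set, in opposite order to the second, whose SupB15-MR values lie under the filter value. The differences were -3.10 (standard error 0.338) and -2.82 (standard error 0.247). Their size is uncertain, since the lower SupB15-MR value of the first probe set also lies under the filter value. GBP3 had 4.96 and 4.07 in SupB15-MR, against 6.79 in SupB15, a 4.86-fold fall (-2.28, standard error 0.271). GBP1 fell on 1 of 3 tested probe sets (5.72 and 5.37 in SupB15-MR, against 7.11 in SupB15), while the others had differences of 0.57 and 0.43. GBP4 passed the threshold narrowly on 1 of 2 probe sets, with 6.61 and 6.82 in SupB15-MR, against 7.79 in SupB15, and was not 2-fold lower in the second SupB15-MR array.

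The antiviral dynamin-like GTPases did not follow the guanylate-binding proteins. MX1, which blocks influenza and other RNA viruses, had 6.62 and 6.98 in SupB15-MR, against 5.79 in SupB15, a 2.02-fold rise (1.01, standard error 0.214). The first SupB15-MR array was less than 2-fold higher, and the call was lost when arrays were centred on their medians. MX2, known for restricting HIV, had a difference of 0.24.

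The ISG15 system showed opposite changes in its enzymes. ISG15 is a ubiquitin-like protein that is joined to other proteins after interferon. It had 7.47 and 7.54 in SupB15-MR, against 8.06 in SupB15, and was not called. HERC5, the main ligase for ISG15 in human cells, had 9.02 and 9.08 in SupB15-MR, against 7.37 in SupB15, a 3.21-fold rise (1.68, standard error 0.202, adjusted p = 7.50e-07 in limma). USP18, which removes ISG15 and also damps signaling at IFNAR2, had 6.05 and 5.57 in SupB15-MR, against 7.89 in SupB15, a 4.23-fold fall (-2.08, standard error 0.224). Thus the ligase was higher and the protease lower in both SupB15-MR arrays. HERC6, the ISG15 ligase of mouse cells, had 5.43 and 5.22 in SupB15-MR, against 3.68 in SupB15, on 1 probe set, and a difference of 0.24 on the other.

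**Figure D3:**
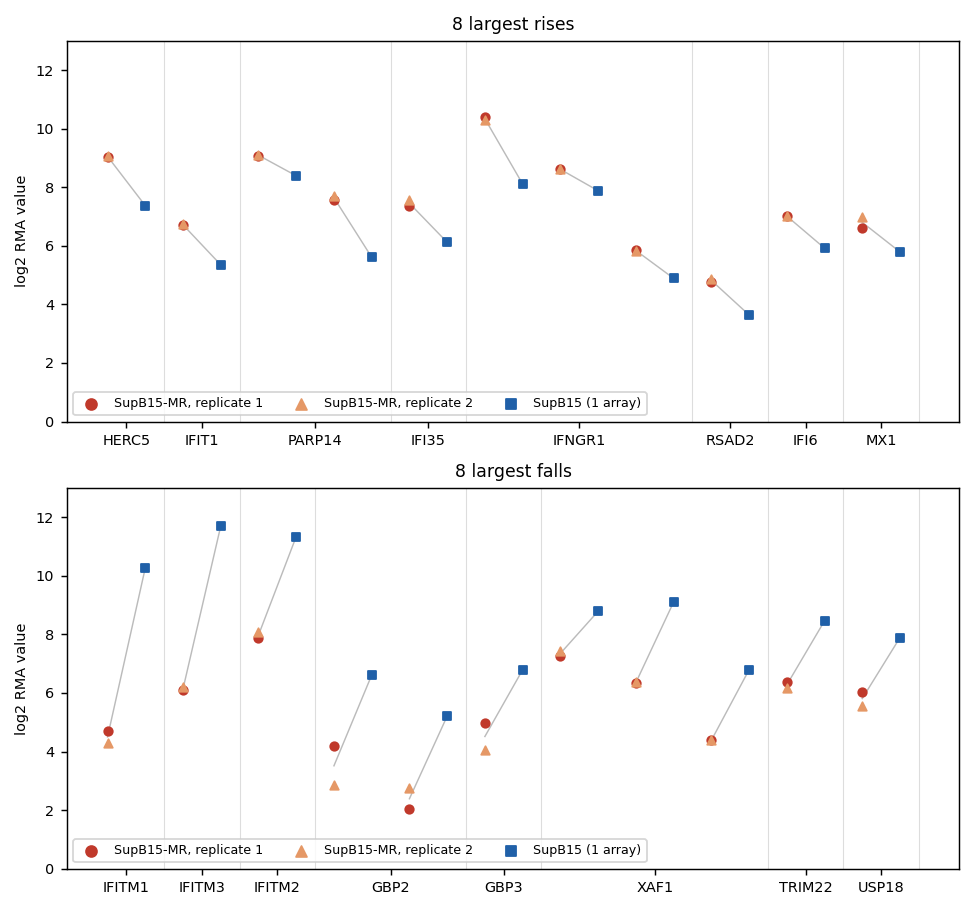
log2 RMA value in SupB15-MR replicate 1, SupB15-MR replicate 2 and SupB15 for every tested probe set of the 8 genes with the largest rises (top) and the 8 with the largest falls (bottom), among genes whose tested probe sets all lay on the same side of SupB15 in both SupB15-MR arrays. Gray lines join the SupB15-MR mean to SupB15, and the falls of IFITM1 (-5.77) and IFITM3 (-5.56) exceed every rise shown.

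The enzymes that act on double-stranded RNA changed little, apart from single probe sets. EIF2AK2, the kinase PKR that halts translation, was called in both directions. It had 7.18 and 7.03 in SupB15-MR against 8.74 in SupB15 on 1 probe set, 7.22 and 6.98 against 6.07 on another, and 9.51 and 9.44 against 9.16 on the last. The arrays thus give no single direction for EIF2AK2. It was called lower and not higher when arrays were centred on their medians or quantile-normalised again. The same held with the variance prior from all tested probe sets and without SupB15-MR replicate 1. OAS1, OAS2 and OAS3 make the second messenger that activates RNase L, and of their 7 probe sets 1 was called, with 6.20 and 6.20 for OAS1 in SupB15-MR, against 5.03 in SupB15. This call was lost when arrays were centred or quantile-normalised again, and the other OAS1 probe set had a difference of -0.61. OAS2 had -0.88, 0.66 and 0.02, OAS3 had 0.80 and 0.00, and OASL, which lacks the enzyme activity, had -0.31 and -0.94. ADAR, which edits adenosine to inosine in double-stranded RNA, had a difference of 0.44.

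Among proteins of nuclear bodies and the TRIM family, SP100 was called in both directions. SP100 is a scaffold of PML nuclear bodies. It had 7.73 and 7.80 in SupB15-MR against 6.65 in SupB15 on 1 probe set and 7.73 and 7.35 against 5.67 on another, but 4.19 and 3.59 against 5.03 on a further one. Its 3 remaining probe sets had differences of -0.67, -0.56 and 0.91. SP110, a related nuclear body protein, was higher on 2 of 5 probe sets, by 1.39 and 1.73. TRIM22, an antiviral ubiquitin ligase, had 6.39 and 6.16 in SupB15-MR, against 8.46 in SupB15, a 4.56-fold fall (-2.19, standard error 0.206, adjusted p = 3.25e-08 in limma). IFI16, a nuclear sensor of DNA, was higher on 1 of 3 probe sets, with 11.00 and 11.00 in SupB15-MR, against 9.37 in SupB15, and TRIM21, a cytosolic antibody receptor, had a difference of 0.13.

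The remaining effectors held the most rises. IFI44, a protein of the cytoplasm with little known biochemistry, had 8.97 and 8.59 in SupB15-MR, against 4.28 in SupB15, which was the largest rise of any member (22.7-fold, 4.50, standard error 0.215, adjusted p = 3.20e-12 in limma). Its second probe set had the same value in all 3 arrays. PARP14, an ADP-ribosyltransferase, had 7.58 and 7.70 in SupB15-MR, against 5.61 in SupB15, a 4.07-fold rise, and 9.07 and 9.11 against 8.39 on its second probe set. SAMHD1, which hydrolyzes deoxynucleotides and is known for inactivating the triphosphate of cytarabine, rose on 3 of 5 tested probe sets, by 1.45, 2.43 and 1.23, the largest with 7.56 and 7.56 in SupB15-MR, against 5.13 in SupB15. Its other tested probe sets had differences of 0.00 and 0.85.

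Smaller rises were seen in genes with a single tested probe set. IFI35, which binds the interferon-induced protein NMI, had 7.35 and 7.55 in SupB15-MR, against 6.12 in SupB15. RSAD2, the antiviral enzyme viperin, had 4.78 and 4.86 in SupB15-MR, against 3.64 in SupB15. IFI6, which inhibits apoptosis and flavivirus replication, had 7.01 and 7.02 in SupB15-MR, against 5.92 in SupB15. These are rises of 2.51-fold, 2.26-fold and 2.14-fold, and those of RSAD2 and IFI6 fell under 2-fold when arrays were centred on their medians. BST2, or tetherin, stayed just under the threshold with 7.78 and 7.92 in SupB15-MR, against 6.87 in SupB15.

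XAF1 fell on each of its probe sets. It binds the apoptosis inhibitor XIAP and favors cell death. Its probe sets had 7.25 and 7.45 in SupB15-MR against 8.79 in SupB15, 6.34 and 6.36 against 9.10, and 4.38 and 4.38 against 6.79. All 3 were called, with falls of 2.72-fold, 6.71-fold and 5.32-fold (differences of -1.44, -2.75 and -2.41). ISG20, an exonuclease, was lower on 1 of 2 probe sets, with 6.12 and 4.81 in SupB15-MR, against 7.29 in SupB15, where the SupB15-MR arrays lay more than 2-fold apart. PARP9, the partner of the ligase DTX3L, had 0.96 and -0.55, and IFI27 had 0.55.

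Probe sets of a single gene often disagreed, which limits what may be said of a gene. Of the 28 members with several tested probe sets, 19 (67.9%) had probe sets that differed by 1 or more on the log2 scale in their difference between SupB15-MR and SupB15, against 62.0% of 9016 genes on the whole array. In 17 members every tested probe set was called in 1 direction, 6 higher and 11 lower. The 6 were IFIT1, HERC5, MX1, RSAD2, IFI6 and IFI35, and the 11 were IFNGR2, IRF7, IRF9, IFITM1, IFITM2, IFITM3, USP18, GBP2, GBP3, TRIM22 and XAF1. Only GBP2, with 2 tested probe sets, and XAF1, with 3, had more than 1. For the rest a single call met this rule, so it does not show agreement between probe sets. The share of all genes on the array that met it was not counted. Without the probe sets whose names mark them as open to several transcripts, 10 probe sets of the members were higher and 15 lower. RIGI, IFI44, IFNGR1 and OAS1 were then no longer called, and SP100 was lower only. IFITM1, IFITM2, IFITM3, IRF7, IFIT5, TRIM22, SP110, IFI16 and IFI35, all called above, had no probe set left to test, so the falls of the IFITM family rest wholly on such probe sets.

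Other genes of the pathway were also mixed. Of 85 further genes, 68 could be tested, with 12 higher (17.6%), 14 lower (20.6%), 3 both ways (4.41%) and 39 not called. Over all genes tested, 22.6% were higher, 19.1% lower and 5.57% both ways. The share called higher thus lay below that of the whole array, and the share called lower lay near it. The interferon genes themselves were at the bottom of the scale, with medians of 3.25 and 3.16 in SupB15-MR and 3.18 in SupB15 over 18 genes, and 11 of their 18 probe sets were removed for low values. IFNA17 alone was called, lower by 1.54. Around the receptors, JAK1 had 1 probe set lower (8.09 and 8.09 in SupB15-MR, against 10.21 in SupB15) and 1 higher, TYK2 had a difference of -0.34, and SOCS3, a feedback inhibitor, was higher on 1 of 3 probe sets (1.23). SOCS1 was not called. PTPN6, the phosphatase SHP-1 that opposes JAK signaling, was lower by 1.74.

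In the sensing pathway beyond RIGI, STING1 and MYD88 fell. STING1, the adaptor for cytosolic DNA, had 4.79 and 4.69 in SupB15-MR against 6.51 in SupB15, and 4.96 and 4.86 against 7.19. MYD88, the adaptor of most Toll-like receptors, had 6.56 and 6.80 in SupB15-MR, against 9.61 in SupB15. TICAM1, the adaptor of TLR3, had 5.65 in all 3 arrays, which is not read as a measured lack of change. TRAF3, a ubiquitin ligase on the way to interferon production, rose on both probe sets, by 2.65 and 1.25. Of the further interferon-induced genes whose tested probe sets were all called in 1 direction, DDX60 (2.51), UBE2L6 (1.42) and CXCL11 (2.09) were higher, and LGALS3BP (-3.14), LGALS9 (-1.89), WARS1 (-1.84) and RTP4 (-1.39) were lower. DDX60 had 6.51 and 4.97 in SupB15-MR, against 3.22 in SupB15, so that its SupB15-MR arrays differed more than 2-fold. CXCL11 had 4.26 and 4.38 in SupB15-MR, against 2.23 in SupB15. The SupB15 values of both genes lie under the filter value of 3.47, and the size of these rises is uncertain.

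The labelled cell type was checked against markers. The 15 B-cell precursor marker genes with a probe set had median values of 9.66 and 9.64 in SupB15-MR and 10.02 in SupB15, with 7 higher, 7 lower and 1 both ways, so that each of the 15 was called. Their probe sets differed by -6.41 to 5.86, further than those of the IFITM family. Of these probe sets 33.3% were higher and 41.7% lower, beside 19.6% and 16.2% of all probe sets tested. Markers of bone marrow stromal cells, the source of the conditioned medium, had medians of 3.41 and 3.41 in SupB15-MR and 3.53 in SupB15. Of their 47 probe sets, 20 were removed for low values. Of 11 stromal genes tested, 1 was higher (9.09%) and 6 lower (54.5%), against 22.6% and 19.1% of all genes. On 1 probe set each, THY1 had 5.15 and 4.69 in SupB15-MR against 8.14 in SupB15, and SPARC 4.13 and 4.08 against 7.38. T and NK cell markers had medians of 4.28 and 4.19 in SupB15-MR and 4.56 in SupB15. Of 9 such genes tested, 0 were higher and 2 lower. Myeloid markers had medians of 4.01 and 3.97 in SupB15-MR and 3.99 in SupB15, with 2 higher and 2 lower of 7 tested. The control probe sets of ACTB had a signal at the 3' end that exceeded the 5' end by 2.59 and 2.43 in SupB15-MR and by 0.80 in SupB15, on the log2 scale, whereas those of GAPDH differed by -0.09 and -0.11 in SupB15-MR and by 0.10 in SupB15. The part of this difference in the probe set differences was not tested.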

How the data were processed

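Total RNA of SupB15-MR (2 arrays) and SupB15 (1 array) was hybridised to arrays of 54675 probe sets. The authors ran RMA on the scanned probes and deposited 1 log2 value per probe set and array. RMA scales arrays to each other, but the deposited medians still differ by 0.19, so calls were repeated after centring and after quantile normalization. Precision is limited by the number of arrays. A probe set was left out when none of its 3 values exceeded 3.47, the 20th percentile over the whole table (8641 probe sets). The rest were fitted with limma 3.58.1 in R 4.3.3, SupB15-MR minus SupB15, with 1 residual degree of freedom. The variance prior came from probe sets that differ between the SupB15-MR arrays (SD 0.169 on 17.1 degrees of freedom), since identical values pull it toward 0. A gene was higher or lower when at least 1 probe set was called that way and none the other way. The genes given with every array's value were the 8 largest rises and 8 largest falls among genes whose probe sets all moved one way, genes called both ways, receptors and transcription factors. Values of other members were chosen after they were seen. The members, lists and tests were chosen with earlier results of these data known. Alternatives were other priors, an ANOVA of these 3 arrays, scalings, filters, probe set choices and 1 SupB15-MR array left out. The fit was also run on simulated data. Noise in all 3 arrays there came from the spread of the SupB15-MR arrays, so the spread of SupB15 was not tested.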

Additional observations from a re-analysis of the deposited data

How the results depend on the processing

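Of 278 gene values under alternatives, 53 moved by more than the spread. These values cover only the receptors, the transcription factors, the genes called both ways, the 8 largest rises and the 8 largest falls. Among them, no gene called in 1 direction changed sign where it had a value. The rises and falls were chosen among genes with all tested probe sets on one side, so few sign changes were possible there. OAS1, outside these genes and called higher, had -0.61 on its only probe set not open to several transcripts. The means of the genes called both ways changed sign: SP100 had 0.25, and -0.79 without probe sets open to several transcripts, and EIF2AK2 had -0.1, and 0.31 on its most intense probe set. With the variance prior from all tested probe sets, 14 interferon probe sets were higher and 9 lower, and 8 genes were lower. The methods' ANOVA, run on probe sets that differ between the SupB15-MR arrays, called 0 probe sets and 0 genes in either direction after Benjamini-Hochberg adjustment, and 6778 of the 27745 probe sets it tested passed an unadjusted p of at most 0.05 with a 2-fold difference. Without probe sets open to several transcripts, 10 probe sets and 9 genes were higher, 15 probe sets and 11 genes were lower, and the IFITM genes could not be tested. The whole array had 16476 calls, against 10491 with the prior from all tested probe sets and 0 with the ANOVA. The median difference of the interferon probe sets, 0.13, was 0.236 over the probe sets of the ANOVA, -0.06 after median centring, -0.053 after quantile normalization, 0.238 above the median of all values and 0 without probe sets open to several transcripts. Leaving out either SupB15-MR array, as values with no test, gave medians of 0.022 to 0.068, 21 to 22 probe sets higher, 20 to 21 lower, 16 to 17 genes higher and 16 lower. Without replicate 1, GBP4 was not called, BST2 was higher and EIF2AK2 lower only. Without replicate 2, MX1 was not called and SP100 was higher only. No paired analysis was possible because SupB15 had 1 array and no replicate number to share.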
